A study of Mus musculus with 12 samples.

Results

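The 8 genes described here mark the 2 classes of striatal medium spiny neuron: Drd1, Tac1, Pdyn and Chrm4 for the direct pathway, and Drd2, Adora2a, Penk and Gpr6 for the indirect pathway. They were taken by gene symbol from the count table of the series, which holds 33024 symbols, and all 8 were found and passed the expression filter that left 16059 genes for testing. The samples were brain cortex from 12 C57BL/6 mice, each sequenced as 1 library of total RNA. The 5 EtOH mice had been offered a bottle of water and one of 20% (v/v) ethanol in the dark phase for 35 days from 30 days of age, and the 7 Control mice had been given water alone. By the study's account these were mice of the abstinence arm, in which drinking was followed by 14 days without ethanol, and all went through behavioural tests and saline perfusion before the cortex was frozen. The labels tie no 2 libraries to 1 animal.

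Medium spiny neurons are the GABAergic projection neurons of the striatum. Direct pathway cells carry the dopamine D1 receptor and release substance P and dynorphin, and indirect pathway cells carry the dopamine D2 receptor and the adenosine receptor encoded by Adora2a and release enkephalin. D1 and these adenosine receptors raise cAMP through the G protein Golf and adenylyl cyclase 5, while D2 and muscarinic M4 receptors oppose it. None of these genes is exclusive to the striatum, since cortical interneurons and some hippocampal cells also make opioid and tachykinin precursors and cortical neurons carry dopamine and muscarinic receptors.

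The 3 peptide genes are shown first by the codons of the peptides that give them their names, read from the GRCm39 genome along the coding exons of the GENCODE vM39 annotation, with the last codon (methionine or leucine) in capitals. Penk (268 codons) holds 6 copies of Met-enkephalin and 1 of Leu-enkephalin, on the minus strand of chromosome 4. Pdyn (248 codons) holds 3 copies of the Leu-enkephalin core and 0 of the Met form, on the minus strand of chromosome 2, and each copy opens one of the dynorphin-family peptides. The Leu-enkephalin codons of Penk and those of the second Pdyn copy are the same bases. Tac1 (130 codons, plus strand of chromosome 6) holds 1 copy each of substance P and neurokinin A, of which substance P is shown.
Penk Met-enkephalin, copy 1 of 6 (chr4:4134334-4134348): tacggaggcttcATG
Penk Leu-enkephalin (chr4:4133941-4133955): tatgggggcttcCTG
Pdyn, copy 1 of 3 (chr2:129530158-129530172): tatggcggctttTTG
Pdyn, copy 2 of 3 (chr2:129530050-129530064): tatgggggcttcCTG
Pdyn, copy 3 of 3 (chr2:129529993-129530007): tatggtggtttcCTG
Tac1 substance P (chr6:7556732-7556764): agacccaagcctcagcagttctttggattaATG

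Promoters were looked up because 7 of the genes moved together. RefSeq entries (GRCm38.p6) were found for 6 of the 8 genes, not for Adora2a and Penk, and the 250 bases before each start site were placed in GRCm39 by an exact match. The cAMP response element TGACGTCA was found before 1 gene, Gpr6, and its core TGACG before 2, Gpr6 and Tac1. The core reads CGTCA on the other strand, and the full element holds 2 overlapping cores. Of 32851 promoter windows of the same length, 1.55% hold the full element and 17.8% the core. The 2 windows with a match are shown with the cores in capitals.
Gpr6, minus strand (chr10:40948287-40948536): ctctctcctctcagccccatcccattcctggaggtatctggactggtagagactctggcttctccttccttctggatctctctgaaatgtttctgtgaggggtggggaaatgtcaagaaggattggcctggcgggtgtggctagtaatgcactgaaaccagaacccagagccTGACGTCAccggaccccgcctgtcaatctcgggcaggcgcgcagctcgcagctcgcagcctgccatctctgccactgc
Tac1, plus strand (chr6:7554811-7555060): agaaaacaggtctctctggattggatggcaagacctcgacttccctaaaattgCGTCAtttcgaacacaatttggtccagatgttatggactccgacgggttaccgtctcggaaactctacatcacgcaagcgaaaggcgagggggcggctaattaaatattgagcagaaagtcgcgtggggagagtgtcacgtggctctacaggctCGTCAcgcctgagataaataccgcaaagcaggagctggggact
Both genes fell in the EtOH mice, as did the 3 genes (Drd1, Pdyn and Drd2) in whose windows neither motif was found, while Chrm4, also without a match, did not pass the test.

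Libraries held between 31768092 and 42183041 counts, so that 3 counts, the floor used here, were worth 0.0711 to 0.0944 CPM (read counts scaled to the library total, here before TMM normalisation), below every member in every mouse. All other CPM values are TMM-normalised. Markers of cortical excitatory neurons were present in all libraries, with a summed level of 2356 to 2839 CPM over 8 genes in the Control mice and 2264 to 2828 CPM in the EtOH mice, led by the vesicular glutamate transporter gene Slc17a7. Control mouse 7 had the lowest value of its group for 7 of the 8 members, with a median of 52.9% of the Control mean, and Control mouse 2 had the highest for the same number. In bulk tissue, fewer cells of a type, less RNA per cell and a different mix of brain regions taken cannot be told apart. The quasi-likelihood test of edgeR was run over all 16059 genes, with Benjamini-Hochberg adjustment, and called where the adjusted p was under 0.05 and the fold change exceeded 0.5 on the log2 scale. The p-values weigh the difference between the groups against the spread between these mice.

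In the EtOH mice, 7 of the 8 members were called lower and 0 were called higher, where 4.09% of all genes tested were called lower and 4.20% higher. The 8 had been chosen with earlier results of these data known, so this contrast is descriptive. The median log2 fold change of the 8 was -2.86, against 0.0001 over all genes tested. For the same 7 genes, every EtOH mouse lay below every Control mouse, a pattern that 4.96% of all genes tested showed. Relative to the Control mean, the indirect pathway genes Drd2, Adora2a and Penk kept the least (3.18%, 4.03% and 7.59%), the indirect pathway gene Gpr6 kept 13.97%, close to the 13.5% of the direct pathway gene Tac1, and the direct pathway gene Chrm4 alone kept a mean of 95.3%. Leaving out any 1 mouse left the number called lower at 7.

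Drd1 encodes the dopamine receptor that defines direct pathway neurons, and lies on chromosome 13 from 54204872 to 54209760 (GRCm39). Its level in Control mice ranged from 37.4 CPM in mouse 7 to 92.6 CPM in mouse 2, with a median of 74.0 CPM. The EtOH mice had 12.01, 8.65, 12.2, 12.7 and 12.4 CPM. All 5 thus lay below the lowest Control mouse, and within the EtOH group mouse 2 stood below 4 closely spaced values. The mean was 67.4 ± 18.4 CPM (SD, n = 7) in the Control and 11.6 ± 1.66 CPM (SD, n = 5) in the EtOH mice, a 5.81-fold lower level (-2.54 ± 0.18, SE, on the log2 scale in edgeR, adjusted p = 4.38e-08).

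Drd2 encodes the dopamine receptor of indirect pathway neurons, on chromosome 9 from 49251654 to 49319477. Control mice had between 36.7 and 92.9 CPM with a median of 68.8 CPM, and EtOH mice had 2.13, 1.87, 3.16, 1.73 and 1.43 CPM. The means of 64.8 ± 19.8 (SD, n = 7) and 2.06 ± 0.664 CPM (SD, n = 5) differed 31.4-fold, the widest gap among the members (-4.97 ± 0.25, SE, on the log2 scale in edgeR, adjusted p = 1.14e-09). The EtOH values rest on 47 to 106 counts per library. Without EtOH mouse 1 the gap was wider for Adora2a, at -5.04 against -4.98 for Drd2 on the log2 scale. Exons of 1 gene on the opposite strand overlap those of Drd2, and the strand setting of the counting is not given in the sources used here.

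Adora2a, the gene of an adenosine receptor that opposes D2 signalling, lies on chromosome 10 from 75152560 to 75170628. Its Control values lay between 28.7 and 86.4 CPM with a median of 60.1 CPM. In the EtOH mice it had 4.61, 1.71, 2.21, 1.58 and 1.40 CPM, so that mouse 1 carried over 2 times the level of each other EtOH mouse. The means were 57.1 ± 18.9 CPM (SD, n = 7) and 2.30 ± 1.33 CPM (SD, n = 5), giving -4.58 ± 0.31 (SE) on the log2 scale in edgeR (adjusted p = 1.92e-08) and -5.04 without EtOH mouse 1.

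Gpr6, an orphan receptor that signals through cAMP, lies on chromosome 10 from 40945973 to 40948304 and had the lowest CPM of the members in Control mice. It had 11.8 to 25.6 CPM there (median 18.4 CPM) and 2.50, 2.49, 3.04, 2.67 and 2.10 CPM in the EtOH mice. The EtOH values were close to each other, and their mean of 2.56 ± 0.341 CPM (SD, n = 5) was 7.16-fold below the Control mean of 18.3 ± 4.70 CPM (SD, n = 7), with an edgeR adjusted p of 8.21e-09.

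Penk, the precursor of the enkephalins, had the highest CPM of the members in the Control mice, and lies on chromosome 4 from 4132722 to 4141856. Control mice had between 165.6 and 524.0 CPM with a median of 354.8 CPM, and EtOH mice had 39.3, 19.3, 31.4, 23.2 and 15.7 CPM. The Control mean of 339.5 ± 108.6 CPM (SD, n = 7) compared with 25.8 ± 9.57 CPM (SD, n = 5) after ethanol, or -3.72 ± 0.27 (SE) on the log2 scale in edgeR (adjusted p = 4.37e-08). A gene on the opposite strand overlaps exons of Penk too.

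Tac1, the precursor of substance P, lies on chromosome 6 from 7554120 to 7565834. It had 31.2 to 99.5 CPM in the Control mice (median 65.1 CPM) and 8.72, 8.12, 8.74, 10.4 and 7.63 CPM in the EtOH mice. These 5 values had the smallest spread among the members on the log2 scale (SD 0.17, against 0.52 in the Control mice). In edgeR the change was -2.89 ± 0.21 (SE) on the log2 scale (adjusted p = 5.98e-08).

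Pdyn, the precursor of the dynorphins, lies on chromosome 2 from 129528469 to 129541945, and changed least among the 7 genes called lower. Control mice had 25.5 to 72.6 CPM (median 51.5 CPM), and EtOH mice 17.8, 19.9, 12.4, 15.5 and 18.5 CPM. The highest EtOH mouse stood at 19.9 CPM, below Control mouse 7 at 25.5 CPM. With means of 51.7 ± 15.6 (SD, n = 7) and 16.8 ± 2.93 CPM (SD, n = 5), 32.5% of the Control level was left (-1.62 ± 0.20, SE, on the log2 scale in edgeR, adjusted p = 1.43e-05).

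Chrm4, the gene of the muscarinic M4 receptor, is annotated with a single exon on chromosome 2 from 91757594 to 91759033. Control mice had 29.0 to 40.3 CPM with a median of 32.8 CPM. EtOH mice had 28.02, 19.0, 29.6, 38.4 and 43.4 CPM. The groups overlapped: 2 EtOH mice lay below every Control mouse and 1 lay above every one. The mean was 33.3 ± 3.81 CPM (SD, n = 7) in the Control and 31.7 ± 9.51 CPM (SD, n = 5) in the EtOH mice, and the fitted change was -0.07 on the log2 scale (adjusted p = 0.759 in edgeR) with a 95% interval from -0.38 to 0.24. A level between 76.9% and 118% of that of the Control mice is thus within its interval. Without EtOH mouse 2 the log2 fold change was 0.06.

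**Figure D1:**
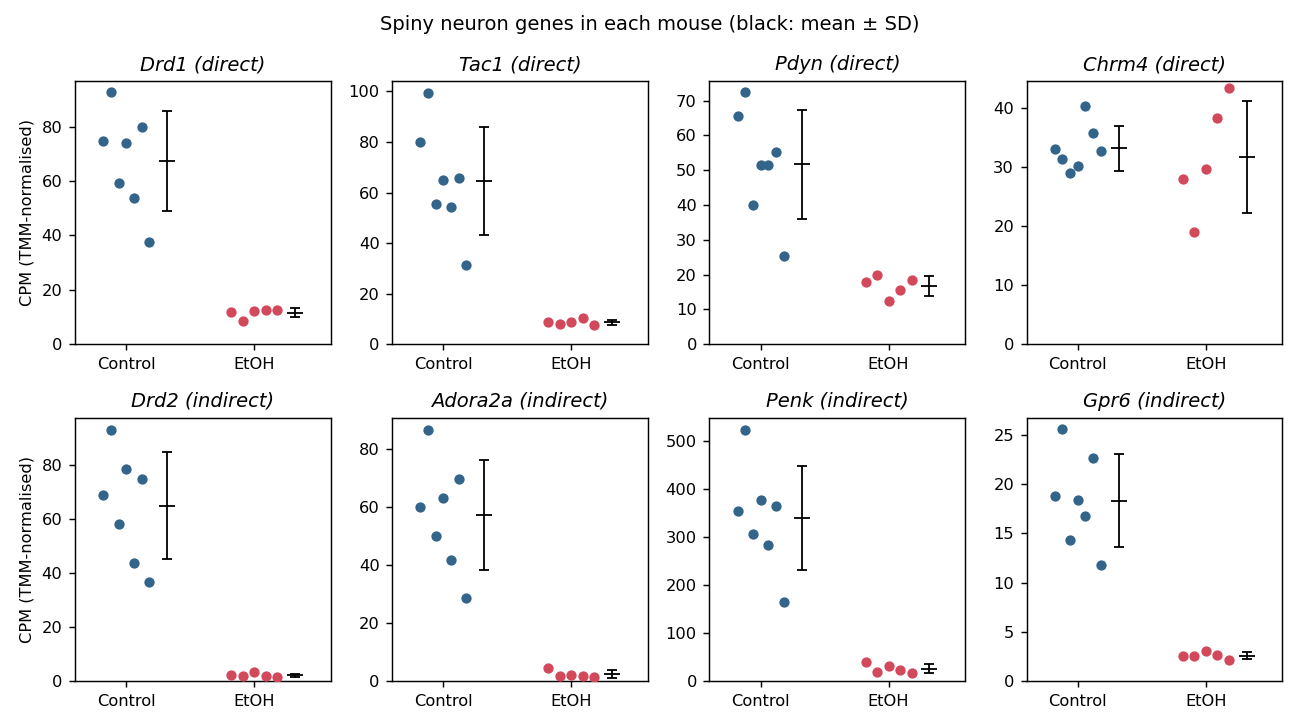
TMM-normalised CPM (vertical axis from 0, its own scale in each panel) of the 8 genes in 7 Control (blue) and 5 EtOH (red) mice. Points are mice, in the order of their numbers, and black bars give the mean ± SD. For 7 genes all red points lie below all blue points, and for Chrm4 they overlap, from 19.0 to 43.4 CPM against 29.0 to 40.3 CPM.

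The members did not change by a common factor. For each pair of genes, the log2 ratio of their CPM was formed within each mouse, which cancels depth and scaling, and compared between the groups by exact permutation of the mice (two-sided, every choice of 5 among 12, smallest possible p = 0.00126). Of the 28 pairs, 25 differed at a Benjamini-Hochberg adjusted p under 0.05, among them all 7 pairs with Chrm4 and 18 of the 21 pairs without it. Among the 12 pairs of a direct and an indirect pathway gene other than Chrm4, the indirect pathway gene fell further at an adjusted p under 0.05 in 10, and the other 2 were Drd1 and Tac1 with Gpr6. Cells outside the striatum can carry these genes too. Their share in each level was not tested, so these ratios are not a comparison of the 2 classes of neuron.

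The log2 ratio of Drd1 to Drd2 was 0.07 ± 0.12 (SD, n = 7) in the Control and 2.49 ± 0.46 (SD, n = 5) in the EtOH mice, a difference of 2.43 (standard error 0.21, exact permutation p = 0.00126, adjusted 0.00168). The dopamine receptors that divide the pathways were thus counted about equally in Control mice and unequally in every EtOH mouse. Tac1 to Penk, the tachykinin and enkephalin precursors, shifted by 0.92 (standard error 0.22, exact permutation p = 0.00253, adjusted 0.00295) in the same direction, and Pdyn to Penk by 2.16 (standard error 0.32, exact permutation p = 0.00126, adjusted 0.00168). Among direct pathway genes, Tac1 fell further than Pdyn by 1.24 on the log2 scale (standard error 0.17, exact permutation p = 0.00126, adjusted 0.00168). Both are peptide genes of direct pathway neurons, but which cells their RNA came from was not tested.

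The 3 pairs that missed the threshold were Drd2 with Adora2a, Tac1 with Gpr6 and Drd1 with Gpr6. Drd2 and Adora2a, both indirect pathway genes, differed by -0.26 (standard error 0.27, exact permutation p = 0.347, adjusted 0.36). For Tac1 and Gpr6, which belong to different pathways, the difference was -0.03 (standard error 0.12, exact permutation p = 0.807, adjusted 0.807). For Drd1 and Gpr6 it was 0.29 (standard error 0.14, exact permutation p = 0.0492, adjusted 0.053). Gpr6 therefore stood nearer to the direct pathway genes Tac1 and Drd1 than to Drd2, from which it differed by 2.14 (exact permutation p = 0.00126, adjusted 0.00168).

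**Figure D2:**
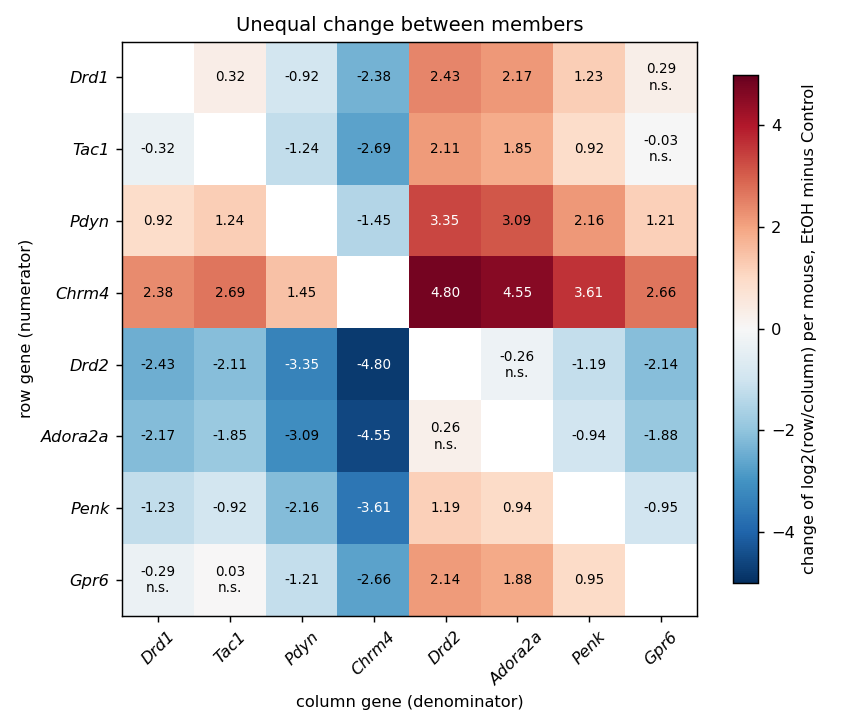
Change between groups (EtOH minus Control) of the within-mouse log2 ratio of the row gene to the column gene for the 8 genes; red means that the row gene fell less than the column gene. Cells marked n.s. missed an adjusted p of 0.05 in the exact permutation test. The Chrm4 row is the reddest, reaching 4.80 against Drd2 and 4.55 against Adora2a, and Drd2 with Adora2a is near 0 at -0.26.

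Compared per kilobase of annotated exon, the order of the genes changed between the groups. Penk led in the Control mice with 97.4 ± 31.2 CPM per kilobase (SD, n = 7) and was above Chrm4, next at 23.1 ± 2.65, in 7 of 7 mice. Drd2 followed with 20.6, below Chrm4 in 5 of 7 mice only, and then Drd1 with 14.8, Tac1 with 14.01, Adora2a with 10.9, Gpr6 with 10.1 and Pdyn with 9.89 CPM per kilobase. Drd1 was above Tac1 in 4 of 7 mice, Adora2a above Gpr6 and Gpr6 above Pdyn in 5 of 7 each, so that these neighbours were not apart beyond their spread. In the EtOH mice Chrm4 led with 22 ± 6.6 CPM per kilobase (SD, n = 5), above Penk with 7.39 in 5 of 5 mice. Pdyn, last in the Control mice, came next with 3.21, and Drd2 and Adora2a came last with 0.657 and 0.438. The exon length of Chrm4 is 1440 bases and covers its coding sequence alone, while the other lengths include untranslated exons. How this bears on its place in the order was not tested, and the counts were made with another release of the annotation than the lengths.

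Among the Control mice, 7 members varied together from mouse to mouse. Their SDs on the log2 scale lay between 0.38 for Gpr6 and 0.52 for Tac1 and Adora2a, where the median over all genes tested was 0.15, and that of Chrm4 was 0.16. Drd1 and Drd2 had a Pearson r of 0.971 (exact permutation p = 0.000794, adjusted over 28 pairs 0.00347) and a Spearman rho of 0.893 (exact permutation p = 0.0123, adjusted 0.0246) over 7 mice. Without Control mice 5 and 7, the farthest from the median of Drd1, r was 0.946 over 5 mice. All 21 pairs without Chrm4 passed (r from 0.81 to 0.995), while 0 of the 7 pairs with Chrm4 did (r from -0.376 to 0.114). These counts lean on Control mouse 7: without it, 5 of the 21 pairs passed over 6 mice, with r between 0.58 and 0.989, and by Spearman's rho 0 did. No correlation was computed over the 5 EtOH mice.

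**Figure D3:**
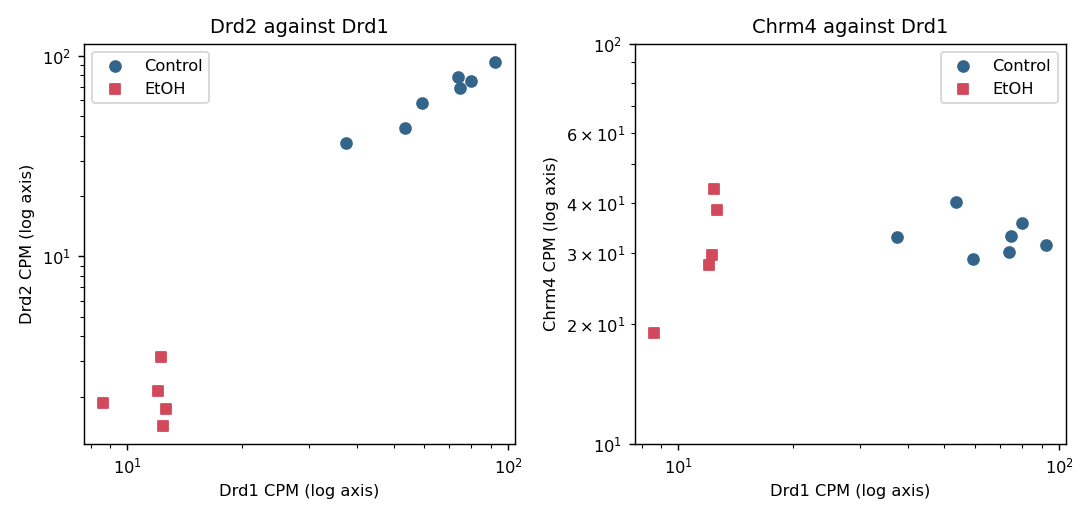
Drd2 (left) and Chrm4 (right) against Drd1, in CPM on log axes, for 7 Control (blue circles) and 5 EtOH (red squares) mice. In the Control mice Drd2 follows Drd1 (r = 0.971), while Chrm4 stays between 29.0 and 40.3 CPM whatever the level of Drd1, and in the EtOH mice Drd2 lies between 1.43 and 3.16 CPM.

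Genes with the most similar pattern between mice were sought by Pearson's r over the 12 mice after each group's mean had been subtracted, so that the difference between the groups does not enter. Closest to the mean of the 8 members were Doc2b (r = 0.984), Rgs9 (0.978), Adcy5 (0.948), Ppp1r2 (0.947) and Wfs1 (0.932). Of these, Rgs9, a regulator of G protein signalling in striatum, and Adcy5, the adenylyl cyclase of spiny neurons, were called lower too, at -3.13 and -1.41 on the log2 scale, as was Ppp1r2 (-0.55). Doc2b and Wfs1 were not called, with log2 fold changes of 0.32 and 0.21. The closest single genes were Adcy5 for Drd1 (r = 0.963), Slc32a1, the vesicular GABA transporter, for Tac1 (0.954), Prkch for Pdyn (0.953), Arid5a for Chrm4 (0.97), Sec14l3 for Drd2 (0.947), Isl1 for Adora2a (0.941), Kcna5 for Penk (0.955) and Rem2 for Gpr6 (0.944). Arid5a, the match of Chrm4, was called higher (log2 fold change 0.71). These r values were picked from 16059 genes and have no test.

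Other genes of the pathways were examined in lists, also chosen with earlier results of these data known. Of 16 genes shared by both classes of spiny neuron, 15 were called lower and 0 higher, with a median log2 fold change of -1.39, and all 16 had every EtOH mouse below every Control mouse. Ppp1r1b, which encodes DARPP-32, the phosphoprotein switch downstream of dopamine, had 410.4 ± 105.2 CPM (SD, n = 7) in the Control and 66.3 ± 6.23 CPM (SD, n = 5) in the EtOH mice. Gnal, the alpha subunit of Golf, fell by 1.07 on the log2 scale (edgeR adjusted p = 1.03e-07). Bcl11b, the transcription factor CTIP2, had a log2 fold change of -0.45 and passed the fold threshold without Control mouse 7 alone (-0.50). The indirect pathway members Drd2, Adora2a and Penk had lower log2 fold changes than every shared gene, while Gpr6 (-2.84) lay above Rgs9 (-3.13) and Scn4b (-3.02), and the median of the 4 was -4.15.

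Of 5 further direct pathway genes, 3 were called lower and 1 higher (median log2 fold change -0.73). Slc35d3, which is needed for D1 receptor trafficking, had 11.9 ± 3.37 CPM (SD, n = 7) in the Control and 1.38 ± 0.430 CPM (SD, n = 5) in the EtOH mice. Isl1, a transcription factor of direct pathway neurons, went from 1.35 to 6.04 CPM in the Control mice to at most 0.371 CPM in the EtOH mice, with a median of 0. With a filter of 10 counts in every mouse Isl1 was too low to be tested, and 3 of the list were called. Eya1 was higher (log2 fold change 0.56), and Sfxn1 was not called (-0.10). Of 4 further indirect pathway genes, 3 were called lower (median -1.42), Upb1 (0.956 ± 0.410 against 0.162 ± 0.0553 CPM) and Gpr52 among them (12.7 ± 2.79 against 3.88 ± 0.783 CPM, SD, n = 7 and n = 5), while Grik3 was not (-0.13). With a filter of 10 counts in every mouse Upb1 was too low to be tested, and 2 of these 4 were called.

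The receptors on which these peptides and transmitters act differed between family members. Among the peptide receptors, 2 of 5 were called lower (median log2 fold change -0.28): Tacr1, the substance P receptor, at -2.24 on the log2 scale (edgeR adjusted p = 1.43e-05), and Oprk1, the dynorphin receptor, with -1.92 (edgeR adjusted p = 2.61e-07). The enkephalin receptor genes Oprd1 and Oprm1 were not called, at -0.28 and 0.01. Among 8 other dopamine, adenosine and muscarinic receptors, Drd3 and Drd4 were called lower and Chrm5 higher (median 0.16). Chrm5 had 0.272 ± 0.133 CPM in the Control and 0.890 ± 0.498 CPM in the EtOH mice (SD, n = 7 and n = 5), with 3 of 5 EtOH mice above every Control mouse, and with a filter of 10 counts in every mouse 0 genes of the list were called. Drd3 had 0 counts in all 5 EtOH libraries and a Control mean of 0.690 ± 0.432 CPM (SD, n = 7), and Drd4 lost its call without any one of Control mice 1, 2, 3 and 4 or EtOH mice 1, 2 and 5, and also by DESeq2 (adjusted p = 0.0568), with a filter of 1 count in any mouse (0.0853) and with the replicate block (0.0689). Adora1, the A1 counterpart of Adora2a, had 152.7 ± 7.95 CPM in the Control and 172.3 ± 5.20 CPM in the EtOH mice (SD, n = 7 and n = 5), 0.17 higher on the log2 scale. Chrm1, the main muscarinic receptor of forebrain neurons, had a log2 fold change of 0.16, also below the fold threshold. Of 6 genes for the enzymes and chaperones that process peptide precursors, 0 were called (median -0.03), with log2 fold changes from -0.27 for Pcsk2 to 0.24 for Pcsk1. By DESeq2 and limma voom 0 were called as well, and 2 passed edgeR's adjusted p once no minimum fold change was asked.

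Markers of other cells and regions moved as well, and their part in the results above was not tested. All 4 genes marking striatal cholinergic interneurons, which make the acetylcholine that M4 receptors bind, were called lower (median log2 fold change -3.21), from a summed 14.4 to 41.2 CPM in the Control to 4.07 to 11.3 CPM in the EtOH mice. Chat and Slc18a3 reached 0 in EtOH mice (means 0.236 and 0.271 CPM), and with a filter of 10 counts in every mouse 2 of the list were called. Of 4 dopamine synthesis and transport genes, Th and Slc6a3 were called lower (median -1.11). Slc6a3, at 0.436 CPM in Control mice, was too low to be tested once any one of Control mice 1, 2, 4, 5 and 6 was left out. Of 8 cortical excitatory markers, 0 were called lower and 1, Fezf2 of deep layer neurons, was called higher (median -0.07). With no minimum fold change 4 passed edgeR's adjusted p, in both directions: Tbr1 (-0.40 on the log2 scale, with 4 of 5 EtOH mice below every Control mouse) was lower, and Fezf2, Neurod6 (0.26) and Cux2 (0.31) were higher. Of 10 cortical interneuron markers, Gad2, Npy and Crh were called lower (median -0.32), and the summed level of the 10 went from 1263 to 1587 CPM in Control to 1032 to 1123 CPM in EtOH mice. With no minimum fold change Gad1 (-0.31, edgeR adjusted p = 0.00397) and Cck (-0.39, 0.00117) passed too, each with every EtOH mouse below every Control mouse. Lhx6, which marks interneurons of the cortex that arise from the medial ganglionic eminence, had a log2 fold change of 0.03, and Sst and Pvalb of -0.23 and -0.31.

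Of 6 markers of dentate gyrus granule cells, which also express Penk and Pdyn, 4 were called higher and 0 lower (median 1.23), with a summed level of 187.5 to 217.3 CPM in the Control and 214.9 to 302.0 CPM in the EtOH mice. Stxbp6 (log2 fold change 0.11) and Calb1 (0.001) were not called. C1ql2 stood at 0.969 ± 0.212 CPM in the Control and 19.1 ± 7.43 CPM in the EtOH mice (SD, n = 7 and n = 5). Of 5 hippocampal CA field markers, 4 were called higher (median 2.14), among them Fibcd1 with 11.9 ± 1.14 and 73.0 ± 21.7 CPM (SD, n = 7 and n = 5), and Wfs1 was not (log2 fold change 0.21). Of 3 choroid plexus markers tested out of 4 listed, 2, Ttr and Kl, were called higher (median 2.72). By limma voom 1 was called, since Ttr lost its call (adjusted p = 0.114). With a filter of 1 count in any mouse 3 were called, since Folr1 was then called higher (log2 fold change 3.48, edgeR adjusted p = 0.000472). The summed level of the 4 listed genes ranged from 10.7 to 980.7 CPM among the EtOH mice, against 7.28 to 20.5 CPM among the Control mice. Of 4 genes marking claustrum and endopiriform cortex, Nr4a2 was called higher and Oprk1 lower (median 0.03), and of 4 thalamus markers 0 were called (median -0.001), also by DESeq2, limma voom and edgeR without a minimum fold change.

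**Figure D4:**
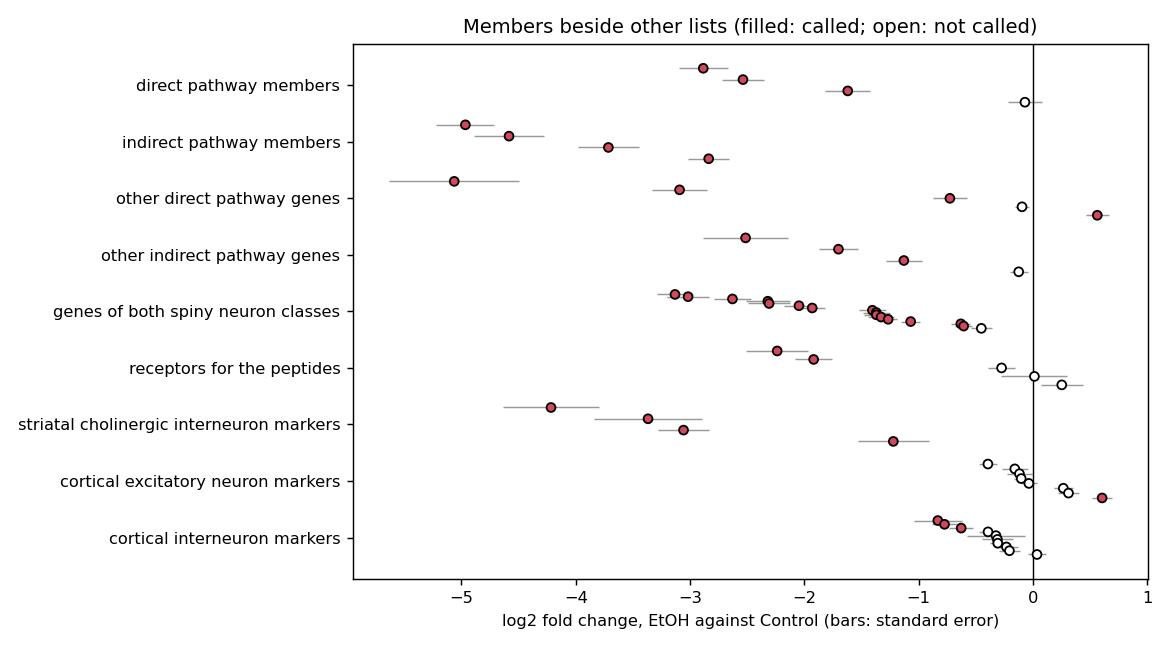
Log2 fold change, EtOH against Control, of each tested gene in 9 lists (rows), with standard error bars from edgeR's quasi-likelihood test. Filled points were called and open points were not. The indirect pathway members lie between -4.97 and -2.84, while cortical excitatory markers lie between -0.40 and 0.60.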

How the data were processed

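Cortex RNA of 12 mice (7 Control, 5 EtOH) had been sequenced by BGI. The authors checked the reads with FastQC 0.11.9, aligned them with STAR to GRCm39 with the Gencode Release 28 annotation, counted them with featureCounts and deposited 1 table of expected counts per gene symbol, without normalization. Whether strand was used is not given in the sources used here. In 61 symbols, 0 of them members, values were not whole, and all were rounded. Columns were matched to mice by name, with 0 left over.

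Groups follow the sample titles. Genes were kept with edgeR's filterByExpr, scaled with TMM (factors 0.982 to 1.02) and compared with the quasi-likelihood test (R 4.3.3, edgeR 4.0.16, limma 3.58.1). Standard errors are the fold change over the square root of F. Log2 CPM values used a prior count of 2. Exon lengths and positions are from GENCODE vM39. The alternatives took DESeq2 1.42.0 or limma voom as the test, relative log expression scaling, other filters and fold minimums, a prior count of 0.5, a replicate block and each mouse left out. The group fit of the 10 mice of the block and the pairs without Control mouse 7 were added after seeing the data. The fits and tests were checked on simulated data. Within groups, none of the 31 library pairs agreed to within counting error (chi-square at least 7.84 per degree of freedom).

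The 8 members and all lists were chosen with earlier results of these data known. The text names the members, genes of those lists, the 5 genes most like the members' mean and the 1 most like each member.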

Additional observations from a re-analysis of the deposited data

Results flagged for a closer look

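Single mice stood apart from their group, by Dixon's 95% criterion, in 3 of 72 checks of the members and their ratios, where chance gives about 3.6. The log2 CPM of Drd1 in EtOH mouse 2 was 3.12, with the next EtOH mouse at 3.59. The log2 ratio of Tac1 to Penk in Control mouse 1 was -2.15, with the next Control mouse at -2.38. The log2 ratio of Adora2a to Gpr6 in EtOH mouse 1 was 0.87, with the next EtOH mouse at -0.45. What set these mice apart was not tested.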

How the results depend on the processing

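The number of members called lower was 7 under all 21 alternatives, and the 7 genes kept their direction in each. Chrm4 was not called in any, with log2 fold changes from -0.21 to 0.06 when 1 mouse was left out, positive at 0.0589 without EtOH mouse 2. Without a minimum fold change, 1863 genes were called lower and 1947 higher among all tested, and with a minimum of 1, 282 and 242, where 657 and 674 were called as reported. The number of differing pairs was 24 to 27 with 1 mouse left out. Correlated pairs among the 7 members other than Chrm4 in Control mice numbered 5 to 21 with 1 mouse left out (5 without Control mouse 7, 15 without Control mouse 2). The replicate numbers of the labels did not pair the mice (correlations of deviations from the group means between -0.108 and 0.018 over 5 numbers, 1 of 5 Control mice correlating best with its own number), and with the number as a replicate block 621 genes were called lower and 689 higher, against 666 and 708 for the same 10 mice by group alone. Among the lists, no minimum fold change gave 6 called among the other receptors and 5 among the cortical interneuron markers, and a minimum of 1 gave 0 of the interneuron markers, 0 of the excitatory markers and 2 of the other direct pathway genes. Of the dopamine genes 1 was called with 10 counts in every mouse and in the 10 mice of the block, where Slc6a3 was too low to be tested. At 31768092 counts or more per library the members are well above the floor, while Isl1, Drd3, Drd4, Chrm5, Chat, Slc18a3, Slc6a3 and Upb1 rest on few counts.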
